A study of Mus musculus with 48 samples.

Results

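The genes described here are the transcriptional regulators of mitochondrial biogenesis together with UCP2, a carrier of the inner mitochondrial membrane. They were taken as every array probe named for 1 of 9 genes, PPARGC1A, PPARGC1B, ESRRA, NRF1, GABPA, TFAM, TFB1M, TFB2M and UCP2. The rule found 12 probes of 8 of these genes among the 24613 probes and 18991 gene symbols of the arrays, and TFB2M is not analysed here. Each gene is described by its brightest probe, and the other 4 probes are given beside it.

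RNA came from 3T3-L1 cells, a mouse fibroblast line that turns into fat cells under hormones. The cells had been transfected with 50 nM of pooled siRNA against PPARγ (PPARγ KD) or with 50 nM of a pooled non-targeting siRNA (control). All cells then received the same agents. Confluent cells on day −2 were given 0.5 mM isobutylmethylxanthine and 0.25 µM dexamethasone for 48 h, and from day 0 they were given 5 µg/ml insulin and 1 µM rosiglitazone, an agonist of PPARγ, for another 48 h. Cells were harvested on day −2, when they reached confluence, and on days 0, 1, 2, 3, 4, 5 and 6, in 3 biological replicates of each siRNA and day, which gave 48 arrays. Both groups therefore carry an siRNA and were given rosiglitazone from day 0, and the model is 1 cell line with a partial loss of the transcript.

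Cells make mitochondria by reading genes of both the nucleus and the mitochondrion. PGC-1α and PGC-1β, the products of PPARGC1A and PPARGC1B, are coactivators that bind no DNA themselves and are brought to promoters by transcription factors. ERRα (ESRRA), an orphan nuclear receptor, NRF-1 (NRF1) and the ETS factor GABPα (GABPA) are such partners and sit at many nuclear genes of respiration. TFAM and TFB1M act inside the organelle. TFAM packs mitochondrial DNA and starts its transcription, and TFB1M is a methyltransferase that modifies the ribosomal RNA of mitochondria. UCP2 is a relative of the heat-producing UCP1 of brown fat. Fat cells in culture gain mitochondria as they differentiate, and PPARγ drives that differentiation.

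Levels below are log2 of the mean bead signal after background correction and scaling of the arrays, and differences are PPARγ KD minus control on that scale. A probe was above background at a detection p under 0.01. A probe was called where limma's p, after Bonferroni correction for the 24613 probes, was 0.05 or less, and every adjusted p below is of that kind. Array medians of the deposited signal lay between 105.1 and 141.7. Replicate 3 stood apart: 33.4% to 35.4% of its probes were detected, and 36.8% to 40.4% in replicates 1 and 2. The level of Pparg was 11.42 under control siRNA and 9.08 in the KD (probe 6130632), and the KD array was the lower one in each of 24 pairs (arrays that share day and replicate number). All 9 adipocyte markers checked were lower in the KD, and their summed signal on day 6 was 130100 to 140600 in the controls against 30400 to 32990 in the KD. All 8 fibroblast markers were above background on every array, and 4 of them were higher in the KD. Several adipocyte markers were weakly detected. Of the 24 control arrays, RETN was above background on 15, FABP4 on 12, CD36 on 9 and LEP on 1. On the KD arrays PLIN, FABP4, RETN, CD36 and LEP were never above background. COX8B, a brown fat marker, differed by −1.80 (called) and was above background on 11 control and 3 KD arrays. The other brown fat markers, UCP1, CIDEA, PRDM16 and ELOVL3, were above background on no array, as were all 4 endothelial and all 4 muscle markers and 5 of 6 macrophage markers. The exception among the macrophage markers was LYZS, which was called higher in the KD. In bulk RNA, fewer fat cells and less of a transcript per fat cell cannot be told apart.

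Over all days, the transcripts of both coactivators, ERRα and UCP2 were lower in the PPARγ KD, and those of NRF-1, GABPα, TFAM and TFB1M were not called. The call was made for 4 of the 8 genes, all lower, against a background of 13.1% of all probes in either direction and 6.74% in the lower direction. Such shares, here and below, count probes that were not detected as well. Only 10567 probes were above background on at least 3 arrays. With the fit limited to these, 3426 of them were called in either direction, a larger share than 13.1%. PPARGC1B differed by −1.89 (SE 0.06), PPARGC1A by −1.44 (SE 0.06), UCP2 by −0.76 (SE 0.04) and ESRRA by −0.51 (SE 0.05). These SEs take the days of a replicate as independent once its block is removed. They do not measure how the difference between the siRNAs varies between replicates. The SD of that difference over the 3 replicates was 0.17 for PPARGC1B, PPARGC1A and UCP2 and 0.20 for ESRRA. The same limit holds for limma's intervals and p-values over several days. The median over the 8 genes was −0.33, and over all probes −0.03. For each of the 8 genes the range of the control arrays over all days overlapped that of the KD arrays.

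**Figure D1:**
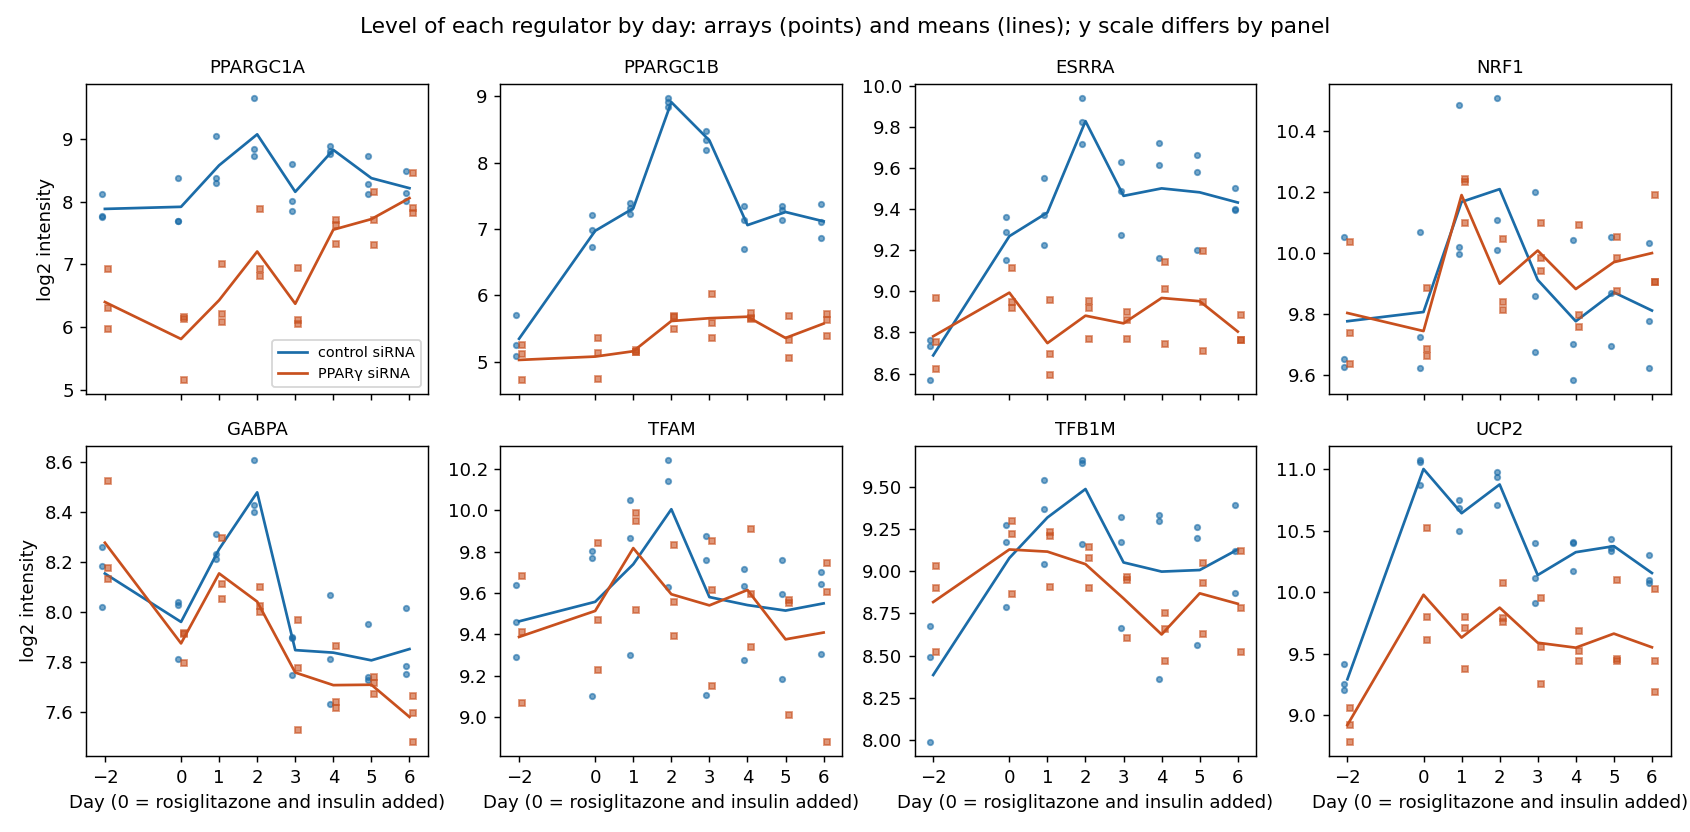
Log2 signal of the brightest probe of each gene (vertical axis, a different scale in each panel) against day. Points are single arrays, circles for control and squares for PPARγ KD, and lines are means of 3 replicates. PPARGC1B rose to 8.91 under control siRNA on day 2 and reached at most 6.02 on the KD arrays, while PPARGC1A reached 8.06 in the KD on day 6 against 8.22 in the control.

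PPARGC1A was detected on every control array and on 16 of the 24 KD arrays. The control arrays ran from 7.69 to 9.66 with a median of 8.34, and the KD arrays from 5.15 to 8.45 with a median of 6.94. The KD array was the lower in each of the 24 pairs, and the adjusted p was 1.34e-20. The replicates gave −1.32, −1.64 and −1.35. The size depends on the background step where KD arrays were not above background. With no background correction the difference was −0.95 over all days and −0.91, −1.19, −1.42 and −1.13 on days −2, 0, 1 and 3, each still called.

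The deficit of PPARGC1A was there on the first day sampled. On day −2 the control replicates read 7.77, 7.76 and 8.13 and the KD replicates 6.31, 5.96 and 6.92, a difference of −1.49 (95% interval −1.81 to −1.16). This was the only 1 of the 8 genes called on day −2, when 0.861% of all probes were. On day 0 the controls read 7.70, 7.69 and 8.37 and the KD arrays 6.12, 5.15 and 6.15, none of them above background. The control was at least 2.63-fold higher on that day, taking for each KD array the higher of its own signal and the lowest signal above background. The difference was −2.15 on day 1, −1.87 on day 2, −1.79 on day 3 and −1.27 on day 4, each called. The groups did not overlap on any day from −2 to 4. Of all probes, 19.6% did not overlap on day 2, and the share on the other days is not given here. The call of day 4 was lost without replicate 2 (−1.18) or replicate 3 (−1.27). Without a block for the replicate number in the fit, the calls of days −2, 3 and 4 were lost.

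The gap narrowed towards the end of the course. On day 5 the difference was −0.65 (95% interval −0.98 to −0.33), which was not called after correction, and the groups overlapped. On day 6 the controls read 8.02, 8.14 and 8.49 and the KD arrays 7.90, 7.83 and 8.45, a difference of −0.16 (95% interval −0.48 to 0.17). The mean difference of days 4 to 6 was smaller than that of days 0 to 2 by 1.35 (95% interval 1.08 to 1.62, adjusted p = 5.06e-08), and by 0.82 with no background correction. Without the replicate block it was not called (adjusted p = 0.299). From day −2 to day 6 the KD level rose by 1.66 (SE 0.16, adjusted p = 4.55e-08), and by 1.04 with no background correction. Without the replicate block this rise was not called (adjusted p = 0.282). It held a step of 1.18 between days 3 and 4, and the control level changed by 0.33 without a call. The knockdown of Pparg itself (probe 6130632) was −2.33 on day 6, and its late effect differed from its early effect by −0.31, which was not called. The KD level of this probe was 7.68 on day −2 and 9.78 on day 6, a course called by limma's F-test (adjusted p = 1.51e-15). On Pparg probe 2680603 the late effect differed from the early one by −2.16 (adjusted p = 1.31e-11). That probe was above background on no control array of days 0 to 2. On probe 1990168 the change was −0.44, not called.

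Under control siRNA the daily means of PPARGC1A began at 7.88 ± 0.21 on day −2 and 7.92 ± 0.39 on day 0 (SD, n = 3). They were 8.58 ± 0.41 on day 1, 9.08 ± 0.51 on day 2 and 8.16 ± 0.40 on day 3. The last 3 days gave 8.83 ± 0.06, 8.38 ± 0.31 and 8.22 ± 0.25. Day 2 stood highest and was above day −2 by 1.19 (adjusted p = 0.000199). This call was lost without replicate 2 (1.23), replicate 3 (0.999) or the replicate block. The level fell by 0.92 from day 2 to day 3, which was called as well. No pair of neighbours in the order of the 8 levels differed by an adjusted p of 0.05 or less. In the KD the means went from 5.81 ± 0.57 on day 0 to 7.20 ± 0.59 on day 2, back to 6.37 ± 0.50 on day 3, and then to 7.55 ± 0.20, 7.72 ± 0.42 and 8.06 ± 0.34 on days 4, 5 and 6. In the KD the steps from day 1 to day 2 and from day 2 to day 3 were not called.

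PPARGC1B is the other coactivator. Its signal passed background on 18 of the 24 control arrays and on 0 of the 24 KD arrays. The control arrays ran from 5.09 to 8.98 with a median of 7.26, and the KD arrays from 4.72 to 6.02 with a median of 5.37. Because no KD array was above background, the fitted difference of −1.89 depends on the offset added to the signal (−1.11 with no background correction), and the data give a bound. The control mean was at least 1.71-fold higher over all days (adjusted p of the fit 3.26e-24).

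PPARGC1B was below detection at confluence and rose under control siRNA. On day −2 it was above background on no array, with control readings of 5.25, 5.09 and 5.70 and KD readings of 5.11, 4.72 and 5.25. On day 0, under isobutylmethylxanthine and dexamethasone alone, the control was at least 1.48-fold over day −2, with 2 of 3 control arrays above background. The control rose by 1.60 on the log2 scale from day 1 to day 2. On day 2 the controls read 8.98, 8.84 and 8.92, at least 5.69-fold over day −2, whereas the KD arrays read 5.68, 5.49 and 5.67. The control was at least 5.42-fold above the KD on day 2 and at least 3.43-fold on day 3.

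After day 3 the control fell by 1.28, from 8.33 ± 0.14 on day 3 to 7.06 ± 0.34 on day 4, and held 7.26 ± 0.11 on day 5 and 7.11 ± 0.25 on day 6 (SD, n = 3). In the order of the control levels day 2 and day 3 did not differ from each other after correction, day 3 was above day 1 (adjusted p = 0.0111), and neighbours among days 1, 5, 6, 4 and 0 did not differ after correction. Day −2 was below all of them. The KD daily means lay between 5.03 and 5.68 with no call over time. The difference was called on every day from 0 to 6, on day 4 only with replicate 2 (−1.22 without it). On days 0, 4 and 6 only 2 of 3 control arrays were above background, and in replicate 3 only 4 of 16 arrays were. The fitted late difference was smaller than the early one by 0.84 (adjusted p = 0.00963). This size too depends on the offset, and the call was lost without any 1 of the 3 replicates (0.75 to 0.88) or without the replicate block.

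The promoters of 3 of the 4 called genes are shown because all 4 were lower in the KD. They are the 250 bases before the transcript start from RefSeq (build GRCm38.p6), written 5′ to 3′ on the strand of the gene. Of the 9 genes, 8 had a window in that table, all but PPARGC1B. The search covered both strands for the core of the NRF-1 site CGCATGCG, the GABP site CCGGAAG, the ERR site TCAAGGTCA, the nuclear receptor half-site AGGTCA, which is also part of the ERR site, and the cAMP response element TGACGTCA. None of these strings occurred in the windows of Ppargc1a, Esrra and Ucp2, so all bases are in lower case.

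Ppargc1a, chr5:51567726-51567975, minus strand: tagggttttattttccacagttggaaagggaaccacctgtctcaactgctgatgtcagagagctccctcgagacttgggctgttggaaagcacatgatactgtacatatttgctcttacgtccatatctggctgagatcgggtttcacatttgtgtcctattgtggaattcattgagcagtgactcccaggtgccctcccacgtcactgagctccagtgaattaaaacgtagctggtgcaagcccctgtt

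Esrra, chr19:6921809-6922058, minus strand: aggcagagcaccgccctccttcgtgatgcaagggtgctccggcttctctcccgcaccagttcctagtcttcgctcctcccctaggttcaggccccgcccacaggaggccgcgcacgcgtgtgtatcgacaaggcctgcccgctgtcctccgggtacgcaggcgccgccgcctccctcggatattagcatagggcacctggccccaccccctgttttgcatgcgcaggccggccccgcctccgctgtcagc

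Ucp2, chr7:100493108-100493357, plus strand: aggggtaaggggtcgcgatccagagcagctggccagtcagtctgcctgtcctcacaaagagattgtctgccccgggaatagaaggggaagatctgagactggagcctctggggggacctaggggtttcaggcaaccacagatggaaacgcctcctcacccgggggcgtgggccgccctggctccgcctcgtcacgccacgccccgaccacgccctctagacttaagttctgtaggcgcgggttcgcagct

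Of all 32851 promoter windows of this length, 1.55% held the NRF-1 core, 6.91% the GABP site, 0.387% the ERR site, 14% the half-site and 1.55% the cAMP response element. The GABP site was found once in 2 of the members, beginning 47 bases before the start of Tfam and 93 bases before that of Gabpa. Gabpa also held the NRF-1 core, the 8 bases just before its start. These letters, or the reverse complement of the GABP site, are in capitals in the stretches below.

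Tfam, chr10:71238070-71238106, minus strand: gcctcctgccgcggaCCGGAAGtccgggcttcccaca

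Gabpa, chr16:84835016-84835123, plus strand: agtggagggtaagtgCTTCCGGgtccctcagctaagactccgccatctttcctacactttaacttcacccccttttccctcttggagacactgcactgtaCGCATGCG

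A match of letters is no evidence of a bound site, and a window without a match says nothing of the factor.

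ESRRA, the nuclear receptor partner of both coactivators, was above background on all 48 arrays. The control arrays ran from 8.57 to 9.94 with a median of 9.40 and the KD arrays from 8.59 to 9.20 with a median of 8.89. The difference of −0.51 (SE 0.05, adjusted p = 4.24e-09) was seen in 23 of 24 pairs, and the replicates gave −0.61, −0.64 and −0.28.

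On day −2 ESRRA did not separate the siRNAs, with controls at 8.76, 8.73 and 8.57 and KD arrays at 8.75, 8.62 and 8.97. On day 2 the controls had reached 9.94, 9.83 and 9.72, a rise of 1.14 (SE 0.13, adjusted p = 2.53e-06), and the KD arrays stood at 8.77, 8.95 and 8.92. The difference of −0.95 on day 2 was the only daily one called (adjusted p = 0.000219), a call lost without replicate 1 (−0.84) or replicate 2 (−0.98). It was larger than that of day −2 by 1.04 on the log2 scale (adjusted p = 0.0359). The control and KD arrays did not overlap on any day from 0 to 6. On day 5 the lowest control read 9.2015 and the highest KD array 9.1983. Of all probes, 19.6% did not overlap on day 2, and the share on other days is not given here. The control mean was 9.27 ± 0.11 on day 0, 9.38 ± 0.16 on day 1, 9.83 ± 0.11 on day 2 and between 9.43 and 9.50 on days 3 to 6, while the KD means lay between 8.75 and 8.99 on all 8 days with no change over time called.

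UCP2 was also above background on all 48 arrays. The control arrays ran from 9.20 to 11.08 with a median of 10.40, and the KD arrays from 8.78 to 10.53 with a median of 9.58. The difference of −0.76 (SE 0.04, adjusted p = 2.62e-15) held in all 24 pairs, with −0.84, −0.87 and −0.56 in the replicates. A further UCP2 probe, 2190050, was above background on no array.

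The rise of UCP2 came before rosiglitazone. Controls read 9.25, 9.20 and 9.42 on day −2 and 11.06, 10.87 and 11.08 on day 0, a rise of 1.71 (SE 0.12, adjusted p = 3.7e-12). The KD arrays read 8.92, 8.78 and 9.06 and then 9.80, 9.61 and 10.53, a rise of 1.06 (adjusted p = 3.42e-06). The 2 rises differed by −0.65 (SE 0.17), which was not called after correction. UCP2 was thus the 1 called gene that also rose in the KD on day 0.

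From day 0 on, the control level of UCP2 was 10.64 ± 0.13 on day 1, 10.88 ± 0.14 on day 2 and 10.14 ± 0.25 on day 3, the last step being a called fall of 0.74. It then stayed between 10.16 and 10.37 on days 4 to 6. The KD level was between 9.55 and 9.98 on days 0 to 6. The difference was called on days 0, 1, 2, 4 and 5, at −1.02, −1.01, −1.003, −0.78 and −0.71, and was −0.37 on day −2, −0.55 on day 3 and −0.60 on day 6. Without replicate 1 none of these 5 days stayed called, with values from −1.02 to −0.62, and without replicate 2 only day 2 did. Without the replicate block none of the 5 was called.

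**Figure D2:**
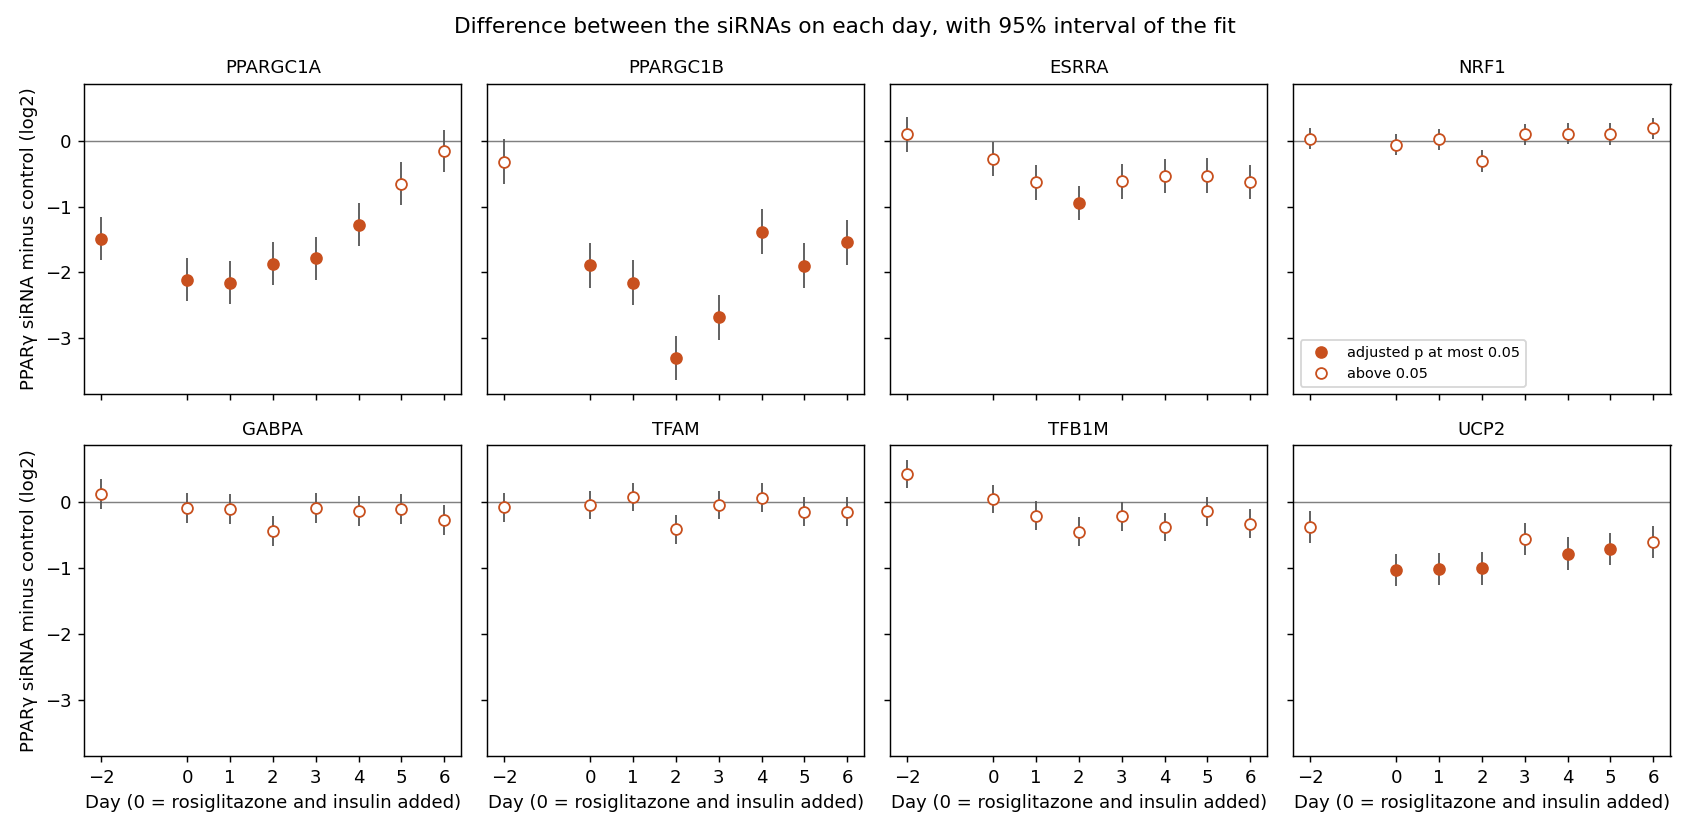
PPARγ KD minus control (log2, vertical axis) on each day for the 8 genes, with the 95% interval of the fit. Filled points have an adjusted p of 0.05 or less. The difference of PPARGC1A goes from −2.15 on day 1 to −0.16 on day 6, those of PPARGC1B are fitted against KD arrays not above background, so that their sizes depend on the offset, and no point of NRF1, GABPA, TFAM or TFB1M is filled.

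The DNA-binding factors other than ERRα moved little. NRF1 was above background on all 48 arrays, with control arrays from 9.58 to 10.51 (median 9.93) and KD arrays from 9.64 to 10.24 (median 9.92). Its difference was 0.02 (95% interval −0.04 to 0.08). The largest daily value was −0.31 on day 2, a day on which the median over all probes was −0.12. On days 4 to 6 NRF1 was higher in the KD in 9 of 9 pairs, by 0.13 (95% interval 0.03 to 0.23), which was not called. Its course under control siRNA was called (adjusted p = 0.0224), with levels of 10.17 ± 0.27 on day 1 and 10.21 ± 0.26 on day 2 against 9.78 ± 0.24 on day −2 (SD, n = 3).

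GABPA has 3 probes, and they did not give the same picture. The brightest, 2360017, was above background on all 48 arrays and ran from 7.63 to 8.61 in the controls and from 7.48 to 8.52 in the KD. The difference was −0.14 (95% interval −0.22 to −0.06, not called). Its level fell by 0.63 from day 2 to day 3 under control siRNA, which was called. In the KD it fell by 0.70 from day −2 to day 6, a call lost without any 1 replicate (−0.78 to −0.62). Probe 4850279 was above background on 32 of 32 arrays of replicates 1 and 2 and on 1 of 16 arrays of replicate 3, where its mean was 6.30 against 8.14 in the others, a difference of −1.84. In replicates 1 and 2 it was brighter than probe 2360017, whose mean there was 7.94. The difference between the siRNAs on probe 4850279 was 0.12 over all days, not called. On day 2 it was 0.38, against −0.44 on probe 2360017, neither called. In the KD the level of probe 4850279 rose by 0.55 from day −2 to day 6, not called. Probe 4780301 was above background on no array.

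**Figure D3:**
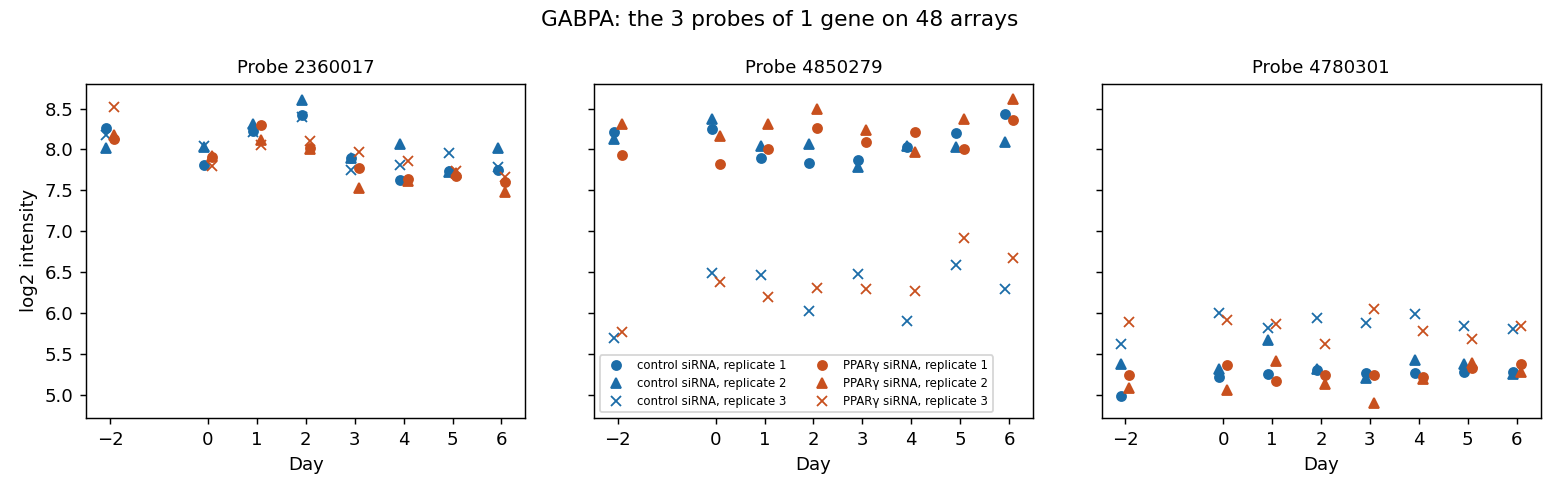
Log2 signal (vertical axis) of the 3 GABPA probes on 48 arrays against day, with a symbol for each replicate and a colour for each siRNA. Replicate 3 (crosses) lies with the other replicates on probe 2360017 and differs from them by −1.84 on probe 4850279.

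Of the factors that work inside the mitochondrion, TFAM differed little between the siRNAs. It was above background on all 48 arrays, with control arrays from 9.11 to 10.24 (median 9.64) and KD arrays from 8.88 to 9.99 (median 9.56). The difference was −0.09 (95% interval −0.16 to −0.01, not called), lower in the KD in 15 of 24 pairs. Replicate 3 differed from the others by −0.51, more than the siRNAs did. TFAM was the 1 gene whose control course was not called, and its highest level was 10.004 ± 0.33 on day 2. A further TFAM probe, 3190164, was above background on no array.

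TFB1M rose under control siRNA from the first agents on. Controls read 8.68, 8.49 and 7.99 at confluence and 9.17, 9.28 and 8.79 on day 0. By day 2 they read 9.64, 9.66 and 9.16. The rise to day 2 was 1.102 (SE 0.11, adjusted p = 5.13e-08). Rises of 0.69 to day 0 and 0.74 to day 6 were called with all replicates, but not without any 1 of them or with median scaling (0.63 and 0.63). Without the replicate block neither these rises nor that to day 2 was called. In the KD the readings were 8.90, 9.03 and 8.52 on day −2 and 9.08, 9.14 and 8.90 on day 2, and no change over time was called. The difference between the siRNAs was 0.43 on day −2 and −0.45 on day 2, neither called by itself, while the change from the one to the other, −0.88 (SE 0.15), was called (adjusted p = 0.0296). Over all days the difference was −0.15 (95% interval −0.23 to −0.07, not called). TFB1M and GABPA pass over all days with Benjamini-Hochberg adjustment of limma's p-values (0.00151 and 0.00602).

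On day 2, 4 of the 8 genes were called against 8.92% of all probes, and in 6 of 8 all control arrays were above all KD arrays. Of all probes, 19.6% did not overlap on that day. The number called was 1 on day −2 (background 0.861%), 3 on day 0 (3.03%), 3 on day 1 (2.91%), 2 on day 3 (2.76%), 3 on day 4 (2.4%), 2 on day 5 (3.24%) and 1 on day 6 (3.88%). On day 6 the gene left was PPARGC1B.

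The control time course was called for 7 of the 8 genes (background 23.5% of all probes) and the KD course for 3, PPARGC1A, GABPA and UCP2 (background 16.5%). Day 2 was above day −2 in the controls for 5 of 8 genes, PPARGC1A, PPARGC1B, ESRRA, TFB1M and UCP2 (background 6.93% higher), and in the KD for UCP2 alone (background 1.6% higher). The courses under the 2 siRNAs differed by limma's F-test for PPARGC1A (adjusted p = 2.56e-06) and PPARGC1B, against 7.11% of all probes. The late effect differed from the early one for the same 2 genes, against 3.63%.

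Days 4 to 6, fitted on their own 18 arrays, called the same 4 genes, against 5.31% of all probes (3.77% lower). PPARGC1B differed by −1.61 (at least 1.54-fold, with 7 of 9 control arrays above background). UCP2 differed by −0.70 (adjusted p = 0.000844), PPARGC1A by −0.69 (adjusted p = 0.0012) and ESRRA by −0.56 (adjusted p = 0.0317). All 9 pairs were lower in the KD for each of the 4. The call of ESRRA was lost without any 1 replicate (−0.65 to −0.47) and with quantile normalization. That of UCP2 was lost without replicate 1 or 2 (−0.65 and −0.63), and that of PPARGC1A without replicate 2 (−0.61). Without the replicate block the calls of ESRRA, UCP2 and PPARGC1A were all lost.

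Across the 16 means of siRNA and day, PPARGC1B and ESRRA followed each other most closely of the members (Pearson r = 0.94), and ESRRA and UCP2 came next (0.84). With the 4 called genes, the genes not called correlated between 0.08 (GABPA with PPARGC1A) and 0.74 (TFB1M with UCP2). These points share arrays and the same controls, so the values describe the courses only. For PPARGC1B no KD array and no control array of day −2 was above background. Those means lie at the floor, which limits what its correlations say. PPARGC1B was not among the probes searched for like courses. Among 9217 probes above background on at least 24 arrays, the courses most like ESRRA were those of COX6B1 (0.97), MRPL34 (0.97) and SUCLG1 (0.96), a subunit of cytochrome c oxidase, a protein of the mitochondrial ribosome and an enzyme of the citric acid cycle. Those most like PPARGC1A were WDR92 (0.93), LPL (0.93), the lipase that frees fatty acids from lipoproteins, and 1110021L09RIK (0.90). Those most like UCP2 were GPHN (0.95), TRAP1 (0.95), a mitochondrial chaperone, and 1110008L16RIK (0.94). For TFB1M they included EXOSC5 (0.93) and TARS2 (0.91), a tRNA synthetase of mitochondria. For TFAM they were PCGF6 (0.94), TRNT1 (0.93), which adds the CCA end to tRNA, and NOL1 (0.93). For NRF1 they were SAC3D1 (0.96), RAD1 (0.91) and WBSCR16 (0.91), and for GABPA TIAL1, ALG11 and CSNK1D (all 0.96).

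The other genes of the pathway were read from 6 lists, each gene by its brightest probe and over all days. The list of respiration genes known as readouts of NRF-1, GABP and ERRα had the largest share called lower. Of its 28 genes 20 were called lower and 1 higher, against 6.74% of all probes called lower and 13.1% either way, with a median of −0.38 against −0.03 over all probes. Those shares count all probes, detected or not, whereas 26 of the 28 genes were above background on at least 3 arrays. CYCS, the electron carrier cytochrome c, fell by 0.99 (SE 0.03) and ACADM, which starts the oxidation of medium-chain fatty acids, by 0.96 (SE 0.04). PDK4, a kinase that shuts pyruvate out of the citric acid cycle, was the 1 gene higher, by 0.63 (SE 0.04). In the controls 20 of the 28 genes were called higher on day 2 than on day −2 (background 6.93%) and 12 on day 6 (background 4.11%).

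In the lists of the machinery that builds the organelle all called genes were lower, against the same 6.74% of all probes. In the order below, 27 of 30, 26 of 28 and 14 of 18 genes were above background on at least 3 arrays. Of 30 genes of protein import and chaperones, 16 were called lower and 0 higher, with a median of −0.25. TIMM10 and TIMM9, small chaperones of the space between the membranes, fell by 0.57 and 0.56. Of 28 genes of mitochondrial DNA maintenance and expression, 11 were called lower and 0 higher, with a median of −0.17. GFM2, a translation factor of mitochondria, fell by 0.52 and MTERFD3, of the family of mitochondrial termination factors, by 0.48. Of 18 genes of fusion, fission and shape, 6 were called lower and 0 higher, with a median of −0.12. LETM1, an ion carrier of the inner membrane, fell by 0.64 and OMA1, a protease that cuts the fusion protein OPA1, by 0.42.

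The called share of the co-regulators was near the background of 13.1% of all probes. Of 26 genes, 10 were above background on no array, 3 were called lower and 1 higher, and the median was −0.03. NOS3, the endothelial nitric oxide synthase, fell by 0.87, with 10 control arrays and 1 KD array above background. NRIP1, a corepressor of nuclear receptors, fell by 0.72, with 16 and 12 arrays above background. RBL1, a relative of the retinoblastoma protein, rose by 0.28 (adjusted p = 0.0437).

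Carriers related to UCP2 went both ways. Of 7 genes 1 was called lower and 3 higher, with a median of −0.01. SLC25A5, the adenine nucleotide exchanger of dividing cells, fell by 0.47. The uncoupling relatives SLC25A30 and SLC25A27 rose by 0.39 and 0.30, and the third of those called higher was SLC25A14, at 0.19. UCP1 and UCP3 were above background on no array. UCP2 was thus the 1 member among UCP1, UCP2 and UCP3 with a measured level.

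**Figure D4:**
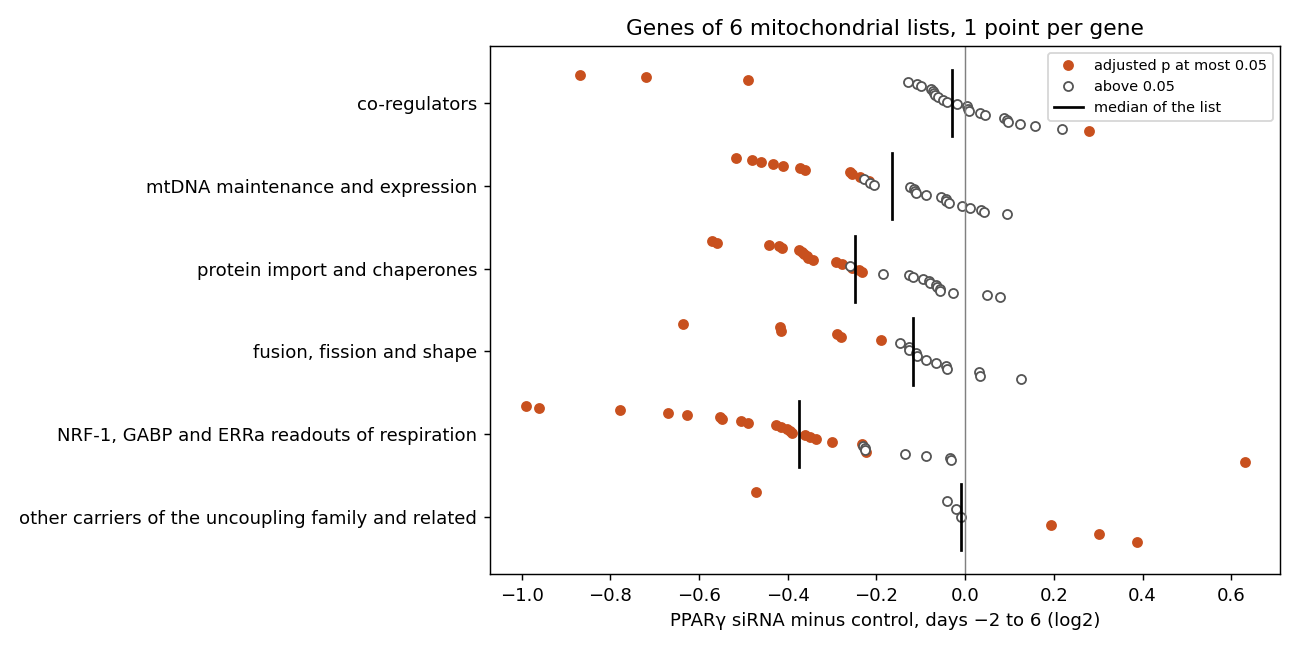
PPARγ KD minus control over all days (log2, horizontal axis) for the genes of 6 lists, 1 point a gene, filled where the adjusted p was 0.05 or less, with a bar at the median of the list. The respiration list lies furthest to the left, with a median of −0.38, and its point on the far right is PDK4 at 0.63.

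On days 4 to 6 the respiration list had 15 of 28 genes called lower and 0 higher, against 3.77% of all probes called lower, with a median of −0.45, protein import 10 of 30 with a median of −0.33, and fusion, fission and shape 6 of 18 with a median of −0.16. Mitochondrial DNA maintenance and expression had 5 of 28, and co-regulators 1 of 26. The adipocyte markers moved with these lists, 8 of 9 being called lower on days 4 to 6 with a median of −2.25. That median is the value of FABP4, which was above background on no KD array, so its size depends on the offset. The part of these markers in the values of the mitochondrial genes was not tested.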

How the data were processed

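Illumina MouseRef-8 v1.1 arrays of 48 RNA samples were used. The deposited values were the mean bead intensity of each probe, summarised by the authors in BeadStudio without normalization, with bead SD, a detection fraction (1 minus the detection p-value) and bead counts. The other 192 columns of values per sample, array minima and the like, were not used. No coordinates of the array probes were used, and RefSeq sequences are credited to their own build.

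The background of the intensities was removed by normexp, guided by the detection p-values and with an offset of 16 (limma 3.58.1, R 4.3.3). They were scaled on rank-invariant probes after the study's methods and log2 transformed. The model (lmFit, eBayes) held 1 mean per condition and a block for the replicate number. The methods name removal of a batch effect without saying which. Deviations from the condition means correlated between 0.544 and 0.914 in all 24 pairs of a shared number. Correlations between unlike numbers are not given here. Because replicate 3 stood apart, the values do not show that the numbers pair replicates 1 and 2. The median probe had 35 beads an array, and the number of arrays limits the precision. Members, gene lists and tests were chosen with earlier results of these data known. Listed genes are named by the 2 largest called differences in each direction, and likeness by the 3 highest correlations, of which 1 is not reported here. SLC25A14 and LYZS were named after their values were seen. The fits were tested on simulated data. Alternatives were other normalizations, offsets, filters, blocks and corrections, and leaving out each replicate. Figures were drawn with matplotlib 3.10.9.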

Additional observations from a re-analysis of the deposited data

Results flagged for a closer look

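For 2 of the 8 genes the knockdown effect on days 4 to 6 was unlike that on days 0 to 2, by limma's interaction contrast. For PPARGC1A the log2 difference between the siRNAs was smaller late by 1.35 (SE 0.13, adjusted p = 5.06e-08, 3 replicates a day), going from −2.04 on days 0 to 2 to −0.69 on days 4 to 6, while all 9 late pairs were still lower in the KD. KD arrays of days 0 and 1 were in part not above background, and with no background correction the change was 0.82. For PPARGC1B it was smaller late by 0.84 (SE 0.14, adjusted p = 0.00963), with the KD arrays not above background on any of these days, so that its fitted size depends on the offset.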

How the results depend on the processing

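Of 1440 values of single genes under the alternatives, 1336 kept their side of the threshold, 67 lost the call and 37 gained it. The sign changed for 0 values of called results and for 30 values of results that were not called. The 4 calls over days −2 to 6 held under every alternative run. Without the replicate block the number of member calls became 1 on days 4 to 6, 11 of the 19 by day, 3 for the control course, 1 for the KD course, 1 for the interaction of siRNA and day and 0 for late against early. With Benjamini-Hochberg adjustment it was 34 by day, 7 for the KD course, 6 for the interaction and 4 for late against early. Leaving out 1 replicate gave 1 to 3 calls on days 4 to 6, 12 to 20 by day, 2 to 4 for the control course, 1 to 2 for the KD course, 1 to 2 for the interaction and 1 for late against early. Over all probes the calls of days −2 to 6 were 3227, against 1769 without the block, 7605 with Benjamini-Hochberg adjustment, 1821 without replicate 1 and 1759 without replicate 2. For days 4 to 6 they were 1307 against 568, 5125, 618 and 560, and for late against early 894 against 426, 2939, 339 and 375. The rises of NRF1 and TFAM to day 2 under control siRNA (0.43 and 0.54) passed the threshold with quantile normalization (0.42 and 0.53) and with an intensity trend in eBayes. The 2-level block, replicate 3 against the others, was chosen after seeing the data, and it took 1 call away, UCP2 on day 5 (adjusted p = 0.0907). The cause of these changes was not tested. Signal over background limits PPARGC1B in every KD array and PPARGC1A in 8 of them.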
